A study of Mus musculus with 6 samples.

Results

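The genes described here are the Fos family (Fos, Fosb, Fosl1 and Fosl2) and the Jun family (Jun, Junb and Jund), which together make up the core of AP-1, with the zinc finger factors Egr1 and Egr3 and the stress-response factor Atf3. They were taken by gene name from a table of 22162 genes, in which each of the 10 names matched 1 row, and all 10 passed the filter on low values that left 11877 genes for testing. The question was whether their transcripts differed between skin fibroblasts labelled senescent and non-senescent.

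AP-1 is a dimer of basic leucine zipper proteins, usually a Fos with a Jun protein, that binds TGACTCA or similar sites in genes of growth, matrix turnover and inflammation. Fos, Fosb, Junb, Egr1, Egr3 and Atf3 are immediate early genes: growth factors or stress switch them on within minutes through MAP kinases acting on serum response factor and CREB-type factors, and their short-lived transcripts soon decline. Fosl1 and Fosl2 rise later and persist longer, Jun activates its own promoter, and Jund is present in resting cells, so the relative level of these genes in fibroblasts depends on how recently the cells were stimulated.

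Poly(A) RNA was sequenced from 6 samples of MSFs, skin fibroblasts of the FVB/N strain cultured at 3% oxygen with serum. The methods describe MSFs as isolated from dorsal skin of a single female FASST mouse, which carries a Cre-ERT2 driven by the fibroblast-expressed Col1a2 promoter and, at ROSA26, a p27Kip1-IRES-GFP cassette behind a lox-stop-lox. Both groups therefore carried the same alleles. In the TAM group (n = 3) the cells received 10 µM tamoxifen for 48 h, which activates Cre, and are labelled senescent. In the EtOH group (n = 3) they received the ethanol vehicle and are labelled non-senescent. No label says that the 3 samples of a group were separate cultures, so p-values measure the spread between these samples, which may be technical. Values are the authors' normalized counts, a library-scaled signal of which 16.2 equalled 1 c.p.m., the unit of the filter on low values. In bulk samples such as these, fewer cells of a type and less RNA per cell cannot be told apart.

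Libraries summed to between 14952367 and 17314953 normalized counts. The fibroblast markers Col1a1, Col1a2, Col3a1, Dcn, Lum, Pdgfra, Thy1 and Vim were all above the filter. Their summed level, mostly Col1a1, Col1a2 and Col3a1, was 1525000 to 1673000 in EtOH and 678800 to 1121000 in TAM. Single markers differed: Thy1 alone had a log2 fold change above 0 (1.36), and the others ran from -0.16 for Vim to -2.38 for Lum. In either fit 0 of these markers were called. Of other cell markers, 2 of 8 keratinocyte, 4 of 8 macrophage, 1 of 8 endothelial and 3 of 7 melanocyte genes passed the filter. The keratinocyte gene Krt1 and the macrophage gene Emr1 were at 0 in every library. The macrophage genes that passed, Cd68, Csf1r, Cd14 and Lyz2, had mean normalized counts of 167, 74.5, 40.65 and 48.3 in EtOH. In TAM their means were 85.3, 143, 81.2 and 135, and 0 of these 4 were called. Krt10, Trp63, Tyr, Mlana and Pmel also passed. Cdkn1b, which encodes p27Kip1, read 1427, 3074 and 1853 normalized counts in EtOH_1 to EtOH_3. In TAM_1 to TAM_3 it read 1699, 1520 and 1630 (log2 fold change -0.32, adjusted p = 0.677). Whether transgene reads were counted to Cdkn1b is not given in the sources used here. EtOH_2 stood apart: it exceeded every other library by more than 2-fold for 253 genes. TAM_2 did so for 271 genes, against 6 to 86 in the remaining libraries.

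The upstream sequences of Fos and Fosb are shown because, of the 10 genes, these had the largest ratio of EtOH_2 to the next library (5.56 and 6.14), and because they were the only 2 of the 9 genes whose upstream sequence was read that held a CArG box, the serum response factor motif, within 500 bases of the annotated start. The sequences are from the mm9 genome, 5′ to 3′ on the strand of the gene. Capitals mark, in Fos, the CArG box at -309 to -300, a TGACGT at -66 to -61 (the first 6 bases of the cyclic AMP response element) and a TATAAA at -33 to -28; in Fosb they mark a TGACGT at -323 to -318 and the CArG box at -272 to -263, counted back from the base before the start.
Fos, chr12:86814520-86814819, plus strand: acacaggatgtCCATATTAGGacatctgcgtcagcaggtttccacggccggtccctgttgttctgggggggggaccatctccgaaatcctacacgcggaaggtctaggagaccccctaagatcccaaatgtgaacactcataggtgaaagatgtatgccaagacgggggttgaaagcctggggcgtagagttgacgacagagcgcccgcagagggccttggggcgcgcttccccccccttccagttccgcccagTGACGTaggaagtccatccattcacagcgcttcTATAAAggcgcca
Fosb, chr7:19895625-19895724, minus strand: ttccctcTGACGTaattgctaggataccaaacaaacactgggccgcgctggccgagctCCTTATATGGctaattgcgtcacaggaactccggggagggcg

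A CArG box was present in 2.33% of the 11567 windows of the same length upstream of tested genes, searched on both strands. TGACGT, also searched on both strands, was found in 13.5% of all windows and in those of Fos, Fosb and Jun, and TATAAA, searched on the strand of the gene, in 9.71% of all windows and in those of Fos and Junb. The AP-1 site TGACTCA (6.28% of all windows) and the full response element TGACGTCA (3.04%), which contains TGACGT, were in none of the 9. A match is only a run of letters, and its absence speaks for this window alone.

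No difference between TAM and EtOH MSFs was detected for any of the 10 genes. In limma's test on log2(normalized counts + 1), 0 of 10 had a Benjamini-Hochberg adjusted p under 0.05 over all genes, where 0.244% of all genes tested were called (20 higher, 0.168%, and 9 lower, 0.0758%). When the replicate number was added as a block, 0 of 10 were called against 1.62% of all genes (1.00% higher and 0.615% lower). Even at an unadjusted p under 0.05, 0 of 10 passed without the block, against 13.4% of all genes, and only Fosl1 passed with it, against 17.0%. The ranges of the groups overlapped for all 10, whereas 20.6% of all genes tested had groups that did not overlap (9.19% higher and 11.4% lower in TAM). What varied was the library: inducible genes were high in EtOH_2, several of them also in TAM_2, and low in EtOH_3.

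**Figure D1:**
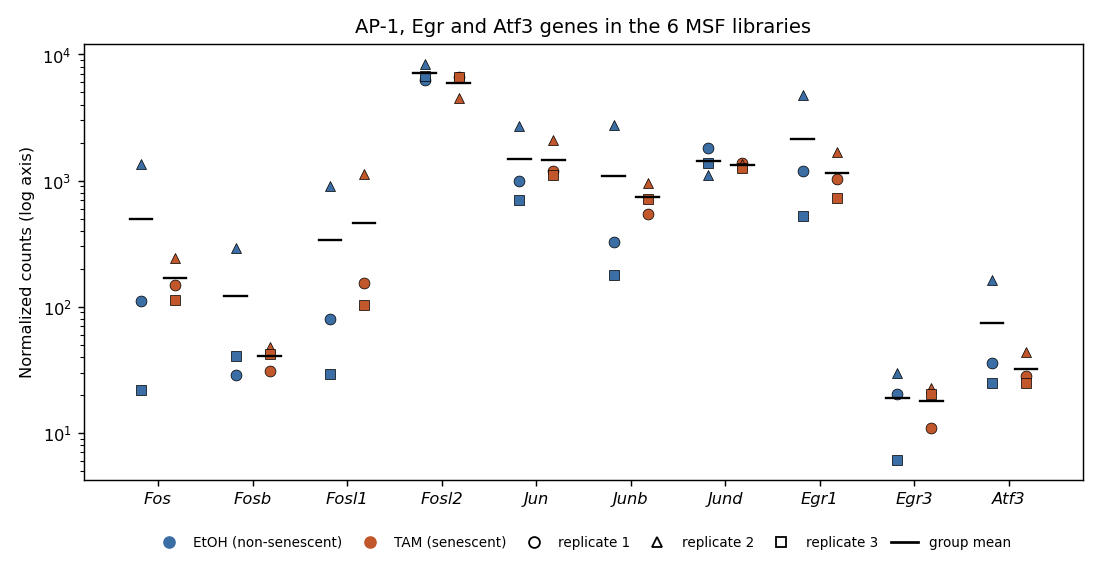
Normalized counts (log axis) of the 10 genes in each library, with blue EtOH and orange TAM points, a symbol for each replicate number and a bar at each group mean. The EtOH_2 triangle lies above all other points of the gene for Fos, Fosb, Fosl2, Jun, Junb, Egr1, Egr3 and Atf3, and the TAM points fall within or across the EtOH range of each gene.

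Fos, the prototype immediate early gene, read 110, 1342 and 22.0 normalized counts in EtOH_1, EtOH_2 and EtOH_3 and 149, 241 and 112 in TAM_1, TAM_2 and TAM_3. The 3 TAM libraries were close to each other and lay inside a 61.1-fold span set by the vehicle libraries, with EtOH_2 at 20.3 times the mean of EtOH_1 and EtOH_3. TAM and EtOH differed by a log2 fold change of 0.09 ± 1.31 (SE, 95% interval -3.00 to 3.18, adjusted p = 0.986). TAM was higher in pairs 1 and 3, by 0.43 and 2.30 on the log2 scale, and lower in pair 2, at -2.47. The size of the difference therefore turned on EtOH_2 and EtOH_3: without EtOH_2 the log2 fold change was 1.66 (adjusted p = 0.376), and without EtOH_3 it was -1.27.

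Fosb, the close relative of Fos, stood at 28.7, 293 and 40.6 normalized counts in EtOH and 31.0, 47.7 and 42.2 in TAM. Its pattern was simpler than that of Fos, since 5 of the libraries lay between 28.7 and 47.7 and only EtOH_2 stood out, at 6.14 times the next library. This gave a log2 fold change of -0.81 ± 0.82 (adjusted p = 0.717), or 0.21 without EtOH_2.

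Fosl1, which encodes Fra-1, had 79.4, 912 and 29.1 normalized counts in EtOH and 153, 1132 and 104 in TAM. Unlike Fos and Fosb it was high in both libraries numbered 2, EtOH_2 at 16.8 times the mean of the other EtOH libraries and TAM_2 at 8.81 times that of the other TAM libraries. It was the only gene of the 10 that moved the same way in all 3 pairs, higher in TAM by 0.94, 0.31 and 1.80 on the log2 scale, while 41.9% of all genes tested had 1 sign in all pairs. The log2 fold change was 1.02, with an SE of 1.36 without the block (95% interval -2.19 to 4.23, adjusted p = 0.794) and 0.33 with it (0.19 to 1.84, unadjusted p = 0.0242, adjusted p = 0.220). With replicates 1 and 3 only it was 1.37 (adjusted p = 0.236), and without EtOH_3 it was -0.04.

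Fosl1 counts could be affected by a neighbour, by reads gained or lost. Fosl1 lies on chr19:5447703-5455945 of mm9 on the plus strand, and 1162 of its 1707 annotated exon bases (68.1%) are shared with Ccdc85b on the minus strand. How reads in these shared bases were counted, and whether strand was used, is not given in the sources used here. It is therefore not known whether such reads went to Fosl1, to Ccdc85b or were left out. Ccdc85b read 345, 1567 and 215 normalized counts in EtOH and 556, 1561 and 381 in TAM. It followed Fosl1 across the libraries (Pearson r = 0.996 over the 6 libraries, which share treatment and replicate number), but in pair 2 the libraries differed by -0.01 on the log2 scale against 0.31 for Fosl1. The other genes most like Fosl1 were Itprip (r = 0.996) and Unc5b (r = 0.994), with 89 genes above 0.95. For Fos they were Hecw2 (r = 0.991), 2510039O18Rik (0.986) and Adcy6 (0.984), with 38 genes above 0.95.

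Fosl2, which encodes Fra-2, was the steady member of the family, with 6290, 8434 and 6706 normalized counts in EtOH and 6586, 4488 and 6611 in TAM. It was again highest in EtOH_2, but lowest in TAM_2, and its full span was 1.88-fold. Between groups the log2 fold change was -0.29 ± 0.23 (95% interval -0.83 to 0.26, adjusted p = 0.640), and with replicates 1 and 3 only it was 0.02.

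Jun, the main partner of Fos proteins, was measured at 983, 2720 and 703 normalized counts in EtOH and 1201, 2084 and 1105 in TAM. Both libraries numbered 2 were the highest of their group and EtOH_3 was the lowest of all. Between groups it had a log2 fold change of 0.19 ± 0.51 (adjusted p = 0.908). Of the annotated exon bases of Jun, 7.28% are shared with BC042782 on the opposite strand.

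Junb, which can restrain growth promoted by Jun, stood at 324, 2768 and 177 normalized counts in EtOH and 543, 951 and 714 in TAM. The TAM libraries lay together, above EtOH_1 and EtOH_3 and below EtOH_2, which was 11.0 times the mean of those 2 EtOH libraries. Its log2 fold change was 0.40 ± 0.93 (95% interval -1.78 to 2.58, adjusted p = 0.891). Without EtOH_2 it was 1.58 (adjusted p = 0.180) and with replicates 1 and 3 only it was 1.37 (adjusted p = 0.128), the lowest adjusted p of any of the 10 genes under any alternative.

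Jund, which is expressed in quiescent cells, had 1800, 1109 and 1369 normalized counts in EtOH and 1374, 1346 and 1251 in TAM. It was the only gene of the 10 with its lowest value in EtOH_2. The span was 1.62-fold and the log2 fold change -0.08 ± 0.21 (95% interval -0.57 to 0.41, adjusted p = 0.903). The interval of the unblocked fit reached no lower than -0.57 and no higher than 0.41, the narrowest among the 10 genes, although 18.9% of its exon bases are shared with Gm11175 on the opposite strand.

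**Figure D2:**
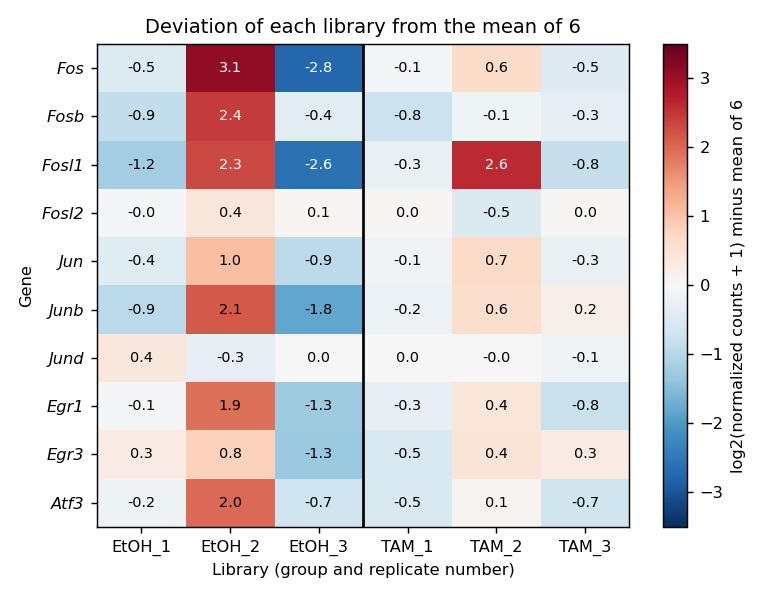
Each cell gives log2(normalized counts + 1) of a library minus the mean of the 6 libraries for that gene, red above and blue below, with EtOH left and TAM right of the line. The EtOH_2 column is red for every gene but Jund, the EtOH_3 column is blue for 8 of 10 genes, and the 3 TAM columns are pale except Fosl1 in TAM_2.

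Egr1, a zinc finger factor induced through serum response elements, read 1197, 4737 and 519 normalized counts in EtOH and 1024, 1676 and 726 in TAM. As with Fos, EtOH_2 was the highest and EtOH_3 the lowest, and TAM_2 was 1.92 times the mean of the other TAM libraries. For Egr1 the log2 fold change was -0.41 ± 0.76 (95% interval -2.19 to 1.37, adjusted p = 0.859), and without EtOH_2 it was 0.45. Egr3, a later-acting relative, was near the lower limit of what was measured, with 20.4, 29.6 and 6.08 normalized counts in EtOH and 11.0, 22.6 and 20.3 in TAM. EtOH_3 and TAM_1 were under 1 c.p.m., and the log2 fold change of 0.12 ± 0.66 (adjusted p = 0.960) rests on few reads.

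Atf3, which is induced by endoplasmic reticulum and other stresses and pairs with Jun proteins, stood at 35.9, 163 and 24.7 normalized counts in EtOH and 28.1, 43.5 and 24.9 in TAM. Apart from EtOH_2 the libraries lay between 24.7 and 43.5. The log2 fold change of -0.74 ± 0.70 (adjusted p = 0.695) was 0.07 without EtOH_2.

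**Figure D3:**
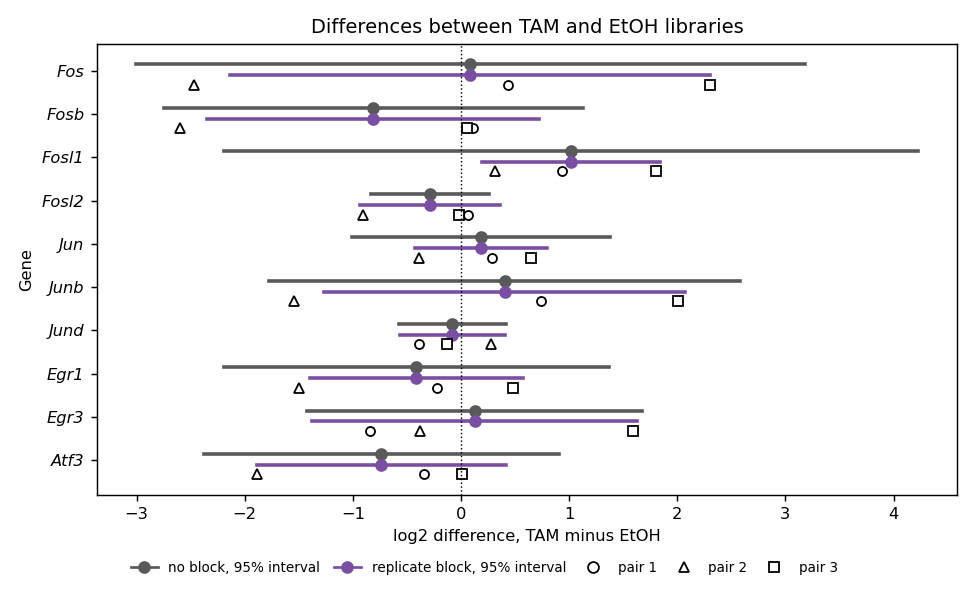
Log2 difference TAM minus EtOH for each gene, with 95% intervals from limma without the block (grey) and with the replicate block (purple), and the difference of each same-numbered pair (open symbols). Of the 10 genes only Fosl1 has an interval clear of 0, in the blocked fit alone, and the pair 2 triangles of Fos, Fosb, Junb, Egr1 and Atf3 lie far to the left.

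The order of the libraries is given beside that of all genes tested. EtOH_2 was the highest of the 6 libraries for 8 of 10, against 24.5% of all genes tested, and it exceeded every other library more than 2-fold for Fos, Fosb, Junb, Egr1 and Atf3, against 2.13%. EtOH_2 and TAM_2 were the 2 highest libraries for 8 of 10 (all but Fosl2 and Jund), against 12.6%. The SD over the 6 libraries on the log2 scale was at least 1 for Fos, Fosb, Fosl1, Junb, Egr1 and Atf3, against 8.39% of all genes tested. These libraries are the unit of replication, so the counts describe libraries and not a treatment.

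EtOH_2 was also high for other responses. Of a list of 21 hypoxia and glycolysis genes compiled after EtOH_2 had been seen to stand apart, 20 were in the table and tested, EtOH_2 was the highest library for 19 and it exceeded every other more than 2-fold for 17. The summed level of the list was 272800 in EtOH_2, 37880 and 46630 in the other EtOH libraries and 44700 to 75940 in TAM. Egln3, an oxygen-sensing prolyl hydroxylase induced by hypoxia, read 48.2, 2904 and 65.4 normalized counts in EtOH and 93.4, 97.2 and 82.4 in TAM. Of 12 genes of endoplasmic reticulum stress and the ATF4 response, listed in the same way, EtOH_2 was the highest for 7 and more than 2-fold above every other for Ddit3, Ddit4, Hspa5 and Atf4. Ddit3, which encodes CHOP, read 2471, 23783 and 3957 normalized counts in EtOH and 1587, 2040 and 2280 in TAM. The part of these responses in the levels of the AP-1, Egr and Atf3 genes was not tested.

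The make-up of each family was compared as levels, in normalized counts per kb of annotated exon. By the median of the 6 libraries the order was Fosl2 (1127), Jund (472), Jun (362), Egr1 (358), Junb (348), Fosl1 (75.3), Fos (55.4), Atf3 (16.1), Egr3 (13.9) and Fosb (11.1). Only between Fosl2 and Jund did the ranges over the 6 libraries stay apart, at 766 to 1440 against 386 to 625. All other neighbours in the order overlapped, Junb, for example, spanning 98.0 to 1532 per kb and Fosl1 17.0 to 663. The Fosl1 level per kb is uncertain, as 68.1% of its exon bases are shared with Ccdc85b.

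Fosl2 held most of the Fos family signal in 4 libraries, at 91.4% in EtOH_1, 96.9% in EtOH_3, 87.5% in TAM_1 and 90.4% in TAM_3 of the family sum per kb. In EtOH_2 its share was 54.9%, with Fos at 21.7% and Fosl1 at 20.4%. In TAM_2 it was 49.6%, and there Fosl1 took 42.9% and Fos 6.64%. The libraries numbered 2 thus shared a high share of Fosl1 and differed in that of Fos. The size of the Fosl1 share, and with it the shares of the rest of the family, is uncertain because of the exon bases shared with Ccdc85b. In the Jun family Jund led in EtOH_1 and EtOH_3, at 56.2% and 59.9%, and Junb led in EtOH_2 at 55.3%, where Jund stood at 13.9%. TAM libraries were more even, with Jund at 28.4% to 41.4%, Junb at 26.0% to 33.6% and Jun at 29.4% to 39.7%. These shares are a description and were not tested.

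**Figure D4:**
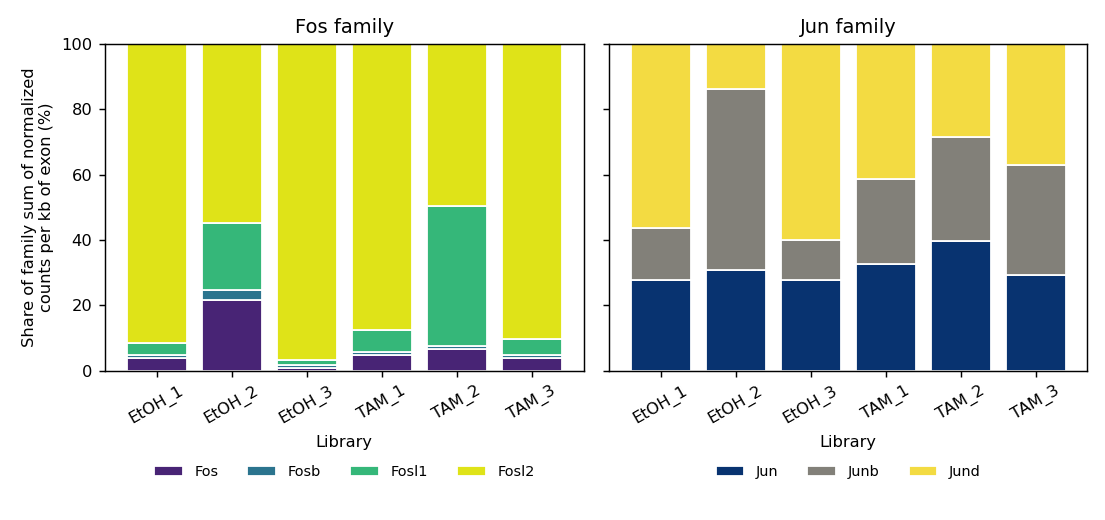
Share of each gene in the family sum of normalized counts per kb of exon, in percent, for the Fos family (left) and the Jun family (right) in each library. Fosl2 fills most of the bar except in EtOH_2 and TAM_2, and Junb is the largest part of the Jun bar in EtOH_2 only.

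Genes around AP-1 and Egr were read from lists compiled by role. The median log2 fold change of all genes tested was -0.03. Without the block no gene of these lists was called, in either direction, and with it only AP-1 target genes were.

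Of 13 other leucine zipper partners of AP-1, 8 passed the filter and 0 were called, with a median log2 fold change of -0.08. At an unadjusted p under 0.05, 1 was lower without the block, against 13.4% of all genes tested in either direction. With it 1 was higher and 2 lower, against 17.0%. Without the block the smallest unadjusted p belonged to Atf7, a stress-responsive relative of Atf2 (log2 fold change -0.71, adjusted p = 0.354). Next came Jdp2, a repressor that pairs with Jun (-0.55, adjusted p = 0.402). Of Egr2, Egr4 and the corepressors Nab1 and Nab2, which bind and dampen Egr proteins, 3 passed the filter and 0 were called or passed at an unadjusted p under 0.05. Nab1 had a log2 fold change of 0.59 (adjusted p = 0.393) and Nab2 of -0.45 (adjusted p = 0.586). Both missed the threshold.

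Upstream of these genes, 9 of 10 serum response and CREB-type activators passed the filter and 0 were called. Unadjusted, 1 was higher and 1 lower, both without the block (13.4% of all genes tested in either direction) and with it (17.0%). Crem, which encodes activators and repressors of cyclic AMP responses, had a log2 fold change of 0.68 (adjusted p = 0.290), and Atf1, a CREB relative, of -0.65 (adjusted p = 0.355). Of 22 MAP kinase genes 17 were matched by name, 16 passed the filter and 0 were called. Unadjusted, 1 was lower without the block, against 13.4% of all genes tested in either direction. With it 1 was higher and 1 lower, against 17.0%. Mapk3, which encodes the kinase ERK1, read 1911, 3263 and 2200 normalized counts in EtOH and 1653, 974 and 1438 in TAM. The groups did not overlap, and 11.4% of all genes tested were likewise lower without overlap. With a log2 fold change of -0.86 Mapk3 missed the threshold (adjusted p = 0.268). Mapk7, which encodes ERK5, had a log2 fold change of -0.42 (adjusted p = 0.399).

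Among 18 feedback inhibitors of MAP kinases, the Dusp, Spry and Spred genes, 17 were matched by name and 16 passed the filter. Of these 0 were called (1 lower unadjusted, without the block, against 13.4% of all genes tested in either direction). With the block 4 were higher and 1 lower unadjusted, against 17.0% of all genes tested in either direction. Spry2, an inhibitor of receptor tyrosine kinase signalling, had a log2 fold change of -0.80 (adjusted p = 0.233) and Dusp8, a phosphatase of stress kinases, of 1.36 (adjusted p = 0.452). EtOH_2 and TAM_2 were the 2 highest libraries for 8 of these 16, against 12.6% of all genes tested. EtOH_2 exceeded every other library more than 2-fold for 0 of the 16, against 2.13% of all genes tested. TAM_2 did so for Dusp4, Dusp6, Dusp8, Dusp10 and Spry4, against 271 of the 11877 genes tested.

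Of 35 other immediate early genes 34 passed the filter and 0 were called. Unadjusted, without the block, 1 was higher and 1 lower, against 13.4% of all genes tested in either direction. With the block 8 were higher and 2 lower unadjusted, against 17.0% of all genes tested in either direction. The median log2 fold change was 0.21, with 21 above 0. Trib1, a pseudokinase that promotes protein degradation, had a log2 fold change of 0.94 (adjusted p = 0.270) and Btg1, an antiproliferative factor, of -1.22 (adjusted p = 0.278). EtOH_2 exceeded every other library more than 2-fold for 7 of the 34, against 2.13% of all genes tested: Ier3, Gadd45b, Zfp36l1, Btg1, Klf10, Mcl1 and Zfp36. EtOH_2 and TAM_2 were the 2 highest libraries for 16 of the 34, against 12.6% of all genes tested. Myc, Arc, Nr4a1, Hbegf and Ptgs2 were among these 16. TAM_2 exceeded every other library more than 2-fold for Ctgf, Plk3, Ptgs2, Rhob, Phlda1 and Hbegf, against 271 of the 11877 genes tested.

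AP-1 target genes were the exception. Of 18 listed from textbook roles, 17 passed the filter, 13 had a log2 fold change above 0 and the median was 1.06. Without the block 0 were called (5 higher unadjusted), where 0.168% of all genes tested were called higher and 13.4% passed unadjusted in either direction. With it 5 rose in TAM, against 1.00% of all genes tested: Mmp3, Mmp13, Timp1, Spp1 and Il6. Unadjusted, with the block, 10 were higher and 1 (Ezr) lower, against 17.0% of all genes tested in either direction. EtOH_2 and TAM_2 were the 2 highest libraries for 9 of the 17, against 12.6% of all genes tested. Both libraries numbered 2 were the highest of their group for 15 of the 17, against 19.5%. EtOH_2 exceeded every other library more than 2-fold for Vegfa and Ezr, against 2.13%. The list was compiled with earlier results of these data known, so its direction is not independent evidence. Il6 also passed the filter through its TAM libraries alone.

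Mmp3, the matrix protease stromelysin 1, read 63.8, 376 and 125 normalized counts in EtOH and 1507, 3255 and 1099 in TAM. The lowest TAM library was above the highest EtOH library, and Mmp3 passed the test with the block only (log2 fold change 3.59, adjusted p = 0.0237 with and 0.103 without). Mmp13, a collagenase, stood at 41.1, 80.1 and 0.74 in EtOH and 1042, 1045 and 186 in TAM, again without overlap (5.02, adjusted p = 0.0359 and 0.221). Of all genes tested, 9.19% were higher in TAM without overlap of the groups. The size of the Mmp13 difference turned on EtOH_3, at 3.33 on the log2 scale without that library, and on the pseudocount, at 4.03 with a pseudocount of 10. Il6, an inflammatory cytokine, had 5.16, 7.56 and 0 normalized counts in EtOH and 66.7, 138 and 26.2 in TAM. Its log2 fold change of 4.08 (adjusted p = 0.0332 and 0.170) was 2.42 with a pseudocount of 10, as EtOH levels were at or near 0. Every EtOH value of Il6 was under the 1 c.p.m. of the filter. It thus entered the test through its TAM libraries alone, and its call is not independent of the filter.

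The remaining called targets overlapped between groups. Timp1, an inhibitor of matrix metalloproteases, read 1328, 3801 and 874 normalized counts in EtOH and 3571, 12745 and 4506 in TAM (log2 fold change 1.85, adjusted p = 0.0384 with and 0.291 without the block). Spp1, the secreted phosphoprotein osteopontin, read 158, 1016 and 65.4 in EtOH and 963, 2714 and 534 in TAM (2.34, adjusted p = 0.0481 and 0.384). For both, TAM was higher within each of the 3 pairs. Without EtOH_3 the log2 fold change of Spp1 was 1.48 and that of Timp1 1.39. With both libraries numbered 2 left out, in a fit without the block, the log2 fold changes were 3.83 for Mmp3 (adjusted p = 0.0512), 5.69 for Mmp13 (0.166), 4.11 for Il6 (0.148), 1.90 for Timp1 (0.0588) and 2.81 for Spp1 (0.0842), each at or above its value over all 6 libraries, and none was called, as in the fit without the block over all 6.

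**Figure D5:**
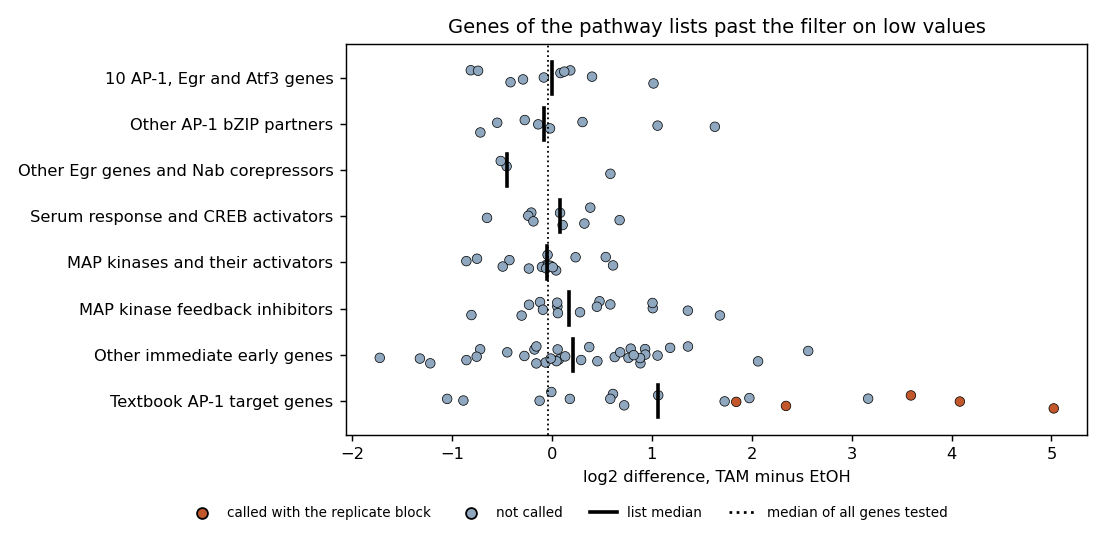
Log2 difference TAM minus EtOH of each gene past the filter, by list, with the list median (bar) and the median of all genes tested (dotted line). The orange points, called only with the replicate block, are the 5 targets Mmp3, Mmp13, Timp1, Spp1 and Il6, and the 10 AP-1, Egr and Atf3 genes lie on both sides of 0.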

How the data were processed

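The authors mapped reads to mm9 with TopHat, counted them per RefSeq annotated gene with HTSeq and tested them with edgeR after TMM normalization. Versions and the strand setting of the counting are not given in the sources used here. The signal the authors deposited is a table of normalized counts, mostly not whole numbers, with the normalization not stated, so limma was used and no count model. Read depth per library is unknown. Columns were matched to samples by title.

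Genes with at least 1 c.p.m. (16.2 normalized counts) in at least 3 of 6 libraries were fitted with limma 3.58.1 (R 4.3.3, intensity trend, two-sided) on log2(value + 1), which understates changes of low genes, and called at a Benjamini-Hochberg adjusted p under 0.05. Same-numbered EtOH and TAM libraries deviated together (r = 0.24, 0.29 and 0.42, against -0.31 to 0.04 for other numbers), so the numbers were taken as pairs and a fit with the replicate number as a block is given where it changes a call. The pairing comes from the labels' numbers and this check, which uses the same data as the blocked fit. Deviations cancel out within a group, so the values for other numbers are not independent of those for the same number.

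Exon lengths, overlaps and sequence came from the mm9 genome and its GENCODE vM1 annotation, and chromosome 18 (Egr1) was not read. The paper counted reads on RefSeq genes, so lengths, levels per kb, shares and overlaps may differ from those of the gene models counted. The members and lists were chosen with earlier results of these data known. Named genes were all 10 members, list genes called in either fit or otherwise the 2 with the smallest unadjusted p, the 3 genes most correlated with Fos and with Fosl1, and Cdkn1b. Egln3, Ddit3, the EtOH_2-high and TAM_2-high genes and the immediate early genes named for their library pattern were chosen after their values were seen. So were the hypoxia and stress lists. Alternatives were scaling, pseudocount, filter, block, library weights, a ratio of floored group means and leaving out each library; replicates 1 and 3 only was added after seeing the data. Figures used matplotlib 3.10.9 and pandas 2.3.3 under Python 3.11.15.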

Additional observations from a re-analysis of the deposited data

How the results depend on the processing

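Among 159 values of the 10 genes under alternatives, 0 had an adjusted p under 0.05, but 23 of these values changed sign. The log2 fold change of Jund was 0.0322 with libraries scaled to the same sum, and that of Fos was -0.0309 with a pseudocount of 10. With replicates 1 and 3 only, Fosb was 0.0808, Fosl2 0.0228 and Egr1 0.13. As a ratio of group means with a floor of 1 c.p.m., Fos was -1.55, Jun -0.0055, Junb -0.57 and Egr3 -0.0595. Leaving out 1 library in turn, the log2 fold change ran from -1.27 to 1.66 for Fos, -1.44 to 0.21 for Fosb, -0.0399 to 2.42 for Fosl1, -0.22 to 0.75 for Jun, -0.40 to 1.58 for Junb, -0.25 to 0.10 for Jund, -1.15 to 0.45 for Egr1, -0.49 to 0.56 for Egr3 and -1.27 to 0.0681 for Atf3. For the AP-1 targets it ran from 3.01 to 4.28 for Mmp3, 3.33 to 6.10 for Mmp13, 3.13 to 4.69 for Il6, 1.29 to 2.45 for Timp1 and 1.48 to 3.45 for Spp1, without the block. Over all genes, the 20 higher and 9 lower calls became 12 and 5 with no filter, 119 and 73 with the replicate block, 386 and 356 with library weights, and 5 and 5 with replicates 1 and 3 only; with at least 10 in every library 4 were lower. Leaving out 1 library gave 0 to 7 higher and 0 to 10 lower calls. In the related lists, 5 genes were higher with the replicate block and 5 with library weights, 2 were lower with library weights and 1 with replicates 1 and 3 only, and leaving out 1 library gave 0 to 1 lower; the block changed no other call among the members and these lists, and in the marker and stress lists it added Kdr and Herpud1, both lower. Of 270 values of related genes, 262 kept their direction and side of the threshold, 8 passed it and 0 changed sign. Egr3, Il6 and Mmp13 have no value with at least 10 in every library. The cause was not tested. Read depth is not known, and 3 libraries a group limit every comparison.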

Other observations

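Among the feedback inhibitors and other immediate early genes, chosen here after their values were seen, Ptgs2, Dusp4 and Maff followed the libraries as Fosl1 did. Ptgs2, which encodes the prostaglandin synthase COX-2, read 144, 2301 and 23.8 normalized counts in EtOH and 508, 8358 and 403 in TAM, higher in TAM in each pair (log2 fold change 2.57, adjusted p = 0.587 without and 0.0854 with the block). Dusp4, a nuclear phosphatase of MAP kinases, read 56.8, 538 and 27.3 in EtOH and 215, 1155 and 116 in TAM (1.68, adjusted p = 0.604 and 0.0581). Maff, a small leucine zipper factor, read 246, 1356 and 72.5 in EtOH and 412, 1385 and 388 in TAM (1.06, adjusted p = 0.702 and 0.336). All 3 were highest, in both groups, in the library numbered 2 and lowest in EtOH_3.

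Kdr, which encodes the endothelial receptor VEGFR2, read 205, 68.7 and 116 normalized counts in EtOH and 4.84, 7.53 and 14.0 in TAM (log2 fold change -3.71, adjusted p = 0.0608 without and 0.0488 with the block). Of 8 endothelial markers only Kdr passed the filter. It did so through its EtOH libraries alone, as every TAM value was under 1 c.p.m., so its call with the block is not independent of the filter.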
